A study of Mus musculus with 42 samples.

Results

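The comparison described here sets hippocampus of PDE10A knockout (KO) mice given a PDE10 inhibitor (PDE10i) against hippocampus of PDE10A KO mice given vehicle (Veh), across all genes on the array. Its members are 10 of the 42 arrays of the series, 5 titled KO HPC PDE10i (numbers 34, 35, 36, 37 and 39) and 5 titled KO HPC Veh (numbers 25, 26, 28, 29 and 30). Each array carried biotin-labelled cRNA made from total RNA of a snap-frozen, microdissected brain region of a C57BL6 mouse. For comparison there were 6 WT HPC PDE10i and 6 WT HPC Veh arrays of hippocampus, and 4 KO PDE10i, 5 KO Veh, 6 WT PDE10i and 5 WT Veh arrays of striatum. The compound, its dose, the time from dosing to dissection, the age of the mice and the part of Pde10a that was deleted are not given in any source used here. No label states that each array stands for an animal of its own, so the tests rest on the spread between arrays, part of which may be technical. Precision is limited by how few arrays there are.

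PDE10A is a phosphodiesterase that hydrolyses the second messengers cAMP and cGMP. It is known above all from striatal projection neurons, where it is abundant, and hippocampus has much less of it. When cAMP rises in a neuron, protein kinase A is released from its regulatory subunits and phosphorylates CREB, a transcription factor that binds the cAMP response element (CRE) in promoters of genes such as somatostatin, and early response genes such as Fos follow. An animal without the enzyme offers the inhibitor no PDE10A to bind, so the question addressed by this comparison is which transcripts differ with the compound in tissue labelled as lacking its target, in a region that has little of that target to begin with.

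All values below are log2 signals, and a log2 difference is PDE10i minus Veh unless another pair is named. Pde10a itself, the targeted gene, had log2 signals of 9.51, 9.80, 9.73, 9.59 and 9.81 in KO PDE10i arrays 34, 35, 36, 37 and 39, against 9.04, 9.08, 9.52, 10.16 and 9.54 in KO Veh arrays 25, 26, 28, 29 and 30. The signal was thus present in every array labelled KO, and all but the array labelled KO Veh 25 lay above all 6 WT Veh hippocampi (8.94 to 9.04). Pde10a averaged 9.69 ± 0.14 in KO PDE10i and 9.47 ± 0.45 in KO Veh (SD, n = 5 each). The log2 difference was 0.22 ± 0.21 (SE, limma adjusted p = 0.993), and an exact two-sided permutation test of the 5 against 5 arrays gave p = 0.317, where 0.00794 is the smallest p it allows. The 5 probe sets of the gene gave differences between 0.03 and 0.47. The groups labelled KO did not average lower in Pde10a than WT Veh, and since the deleted part is not known here, whether these probe sets could show the deletion was not tested.

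Arrays 25 and 26, labelled KO Veh, stood apart from the other arrays labelled KO. Their Pde10a signals of 9.04 and 9.08 were the lowest of the 10. A score of 15 genes on chromosome 17, the chromosome of Pde10a, was built from striatal arrays alone and placed on a scale where 0 is the median of WT Veh hippocampi and 1 that of KO PDE10i hippocampi. It was 0.966 to 1.08 in the 5 KO PDE10i arrays, and -0.00072, 0.111, 1.03, 1.04 and 0.747 in KO Veh arrays 25, 26, 28, 29 and 30. The 6 WT Veh arrays lay between -0.151 and 0.155. Arrays 12 and 14, labelled WT PDE10i, scored 1.08 and 0.942, while the other WT PDE10i arrays scored 0.0191 to 0.198. Fndc1, on chromosome 17, gives an example: its log2 signals were 7.33, 7.68, 6.96, 7.34 and 7.30 in KO PDE10i arrays, against 6.10, 6.29, 7.25, 7.12 and 7.29 in KO Veh arrays. Only the arrays labelled KO Veh 25 and 26 were below 6.5 on this gene. Whether these 4 arrays, called the doubted arrays from here on, carry the wrong genotype label was not tested. Counts over all genes are given with and without them, and values without them stand beside a result or are gathered after the gene lists. Without the arrays labelled KO Veh 25 and 26, the Pde10a difference was -0.05 (exact two-sided permutation p = 0.714, smallest possible 0.0357).

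The region label was checked on marker genes. Prox1, a transcription factor of dentate granule cells, averaged 7.18 in KO PDE10i and 7.03 in KO Veh hippocampus, above 5.42 and 5.47 in KO PDE10i and KO Veh striatum. Drd1, the D1 dopamine receptor of striatal projection neurons, averaged 6.91 and 7.01 in KO PDE10i and KO Veh hippocampus, below 11.42 and 11.47 in KO PDE10i and KO Veh striatum. The mean of 24 hippocampal subfield markers lay between 9.02 and 9.20 in KO PDE10i arrays and between 8.91 and 9.22 in KO Veh arrays. A measure of RNA shortening, the log2 signal of a 3′ Gapdh probe set minus that of a 5′ one, averaged 0.225 ± 0.113 in KO PDE10i and 0.196 ± 0.072 in KO Veh (SD, n = 5 each, exact permutation p = 0.706).

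**Figure D1:**
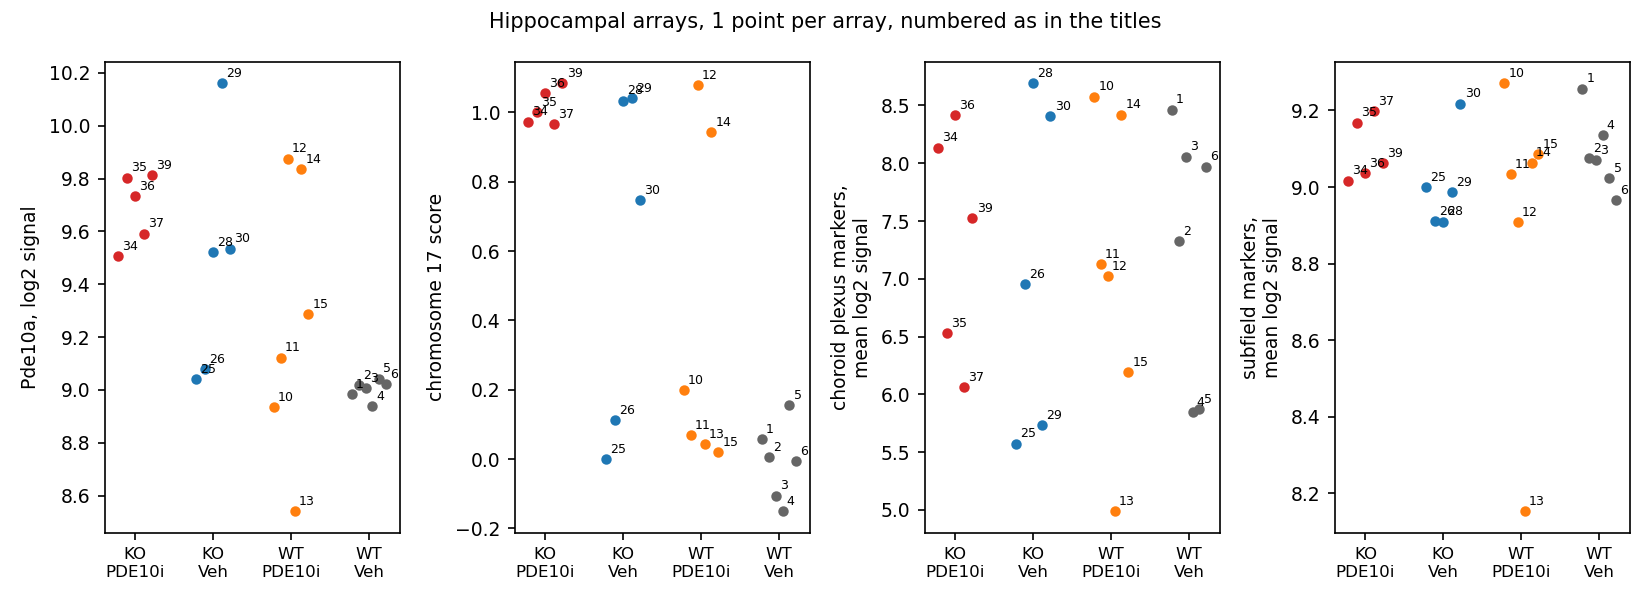
Each point is 1 hippocampal array, numbered as in its title, in the groups KO PDE10i, KO Veh, WT PDE10i and WT Veh; the panels show the log2 signal of Pde10a, the chromosome 17 score (0, median of WT Veh; 1, median of KO PDE10i), and the mean log2 signal of choroid plexus and of hippocampal subfield markers. The arrays labelled KO Veh 25 and 26 sit near the WT Veh arrays in the first 2 panels, WT PDE10i 12 and 14 sit with the KO arrays, and WT PDE10i 13 is lowest on the subfield markers at 8.15.

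No gene passed the test for the inhibitor in KO hippocampus. Of 18193 genes, 0 (0.0%) had an adjusted p under 0.05 by limma with Benjamini-Hochberg adjustment, and the smallest adjusted p was 0.993. At an unadjusted p under 0.05 there were 695 genes (3.82%), 373 higher (2.05%) and 322 lower (1.77%) in KO PDE10i. The 2 groups of 5 arrays did not overlap for 96 genes (0.528%), 56 higher (0.308%) and 40 lower (0.22%). Most differences were small. The middle 90% of genes had log2 differences between -0.14 and 0.14, 14 genes exceeded 0.5 in size, and 1 gene, Ttr, exceeded 1. The whole range was -0.55 to 1.07, and 10354 genes (56.9%) were above 0, with a median of 0.01.

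The intervals say how large a difference in signal these arrays could have missed. Mean log2 signal over the hippocampal arrays reached 6 for 11389 of the 18193 genes. How signal relates to transcript amount in the dimmer genes was not tested. The median 95% interval of a gene reached 0.158 on either side of its estimate on the log2 scale. For 17550 genes (96.5%) the whole interval lay within 0.5 on either side of 0, a 1.41-fold change, and for 18118 it lay within 1, a 2-fold change. For the other 75 genes a 2-fold difference lies inside the interval, and the choroid plexus genes described further on are among them. When the 4 doubted arrays were left out of the fit, which then held 18 hippocampal arrays, 0 genes passed again (smallest adjusted p = 1.0), 389 (2.14%) had an unadjusted p under 0.05, and 26 genes exceeded 0.5. In that fit the whole interval lay within 0.5 on either side of 0 for 17258 genes (94.9%). Across the 18193 genes, the differences with and without the 4 doubted arrays correlated at r = 0.725, and both share the 8 other KO arrays.

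**Figure D2:**
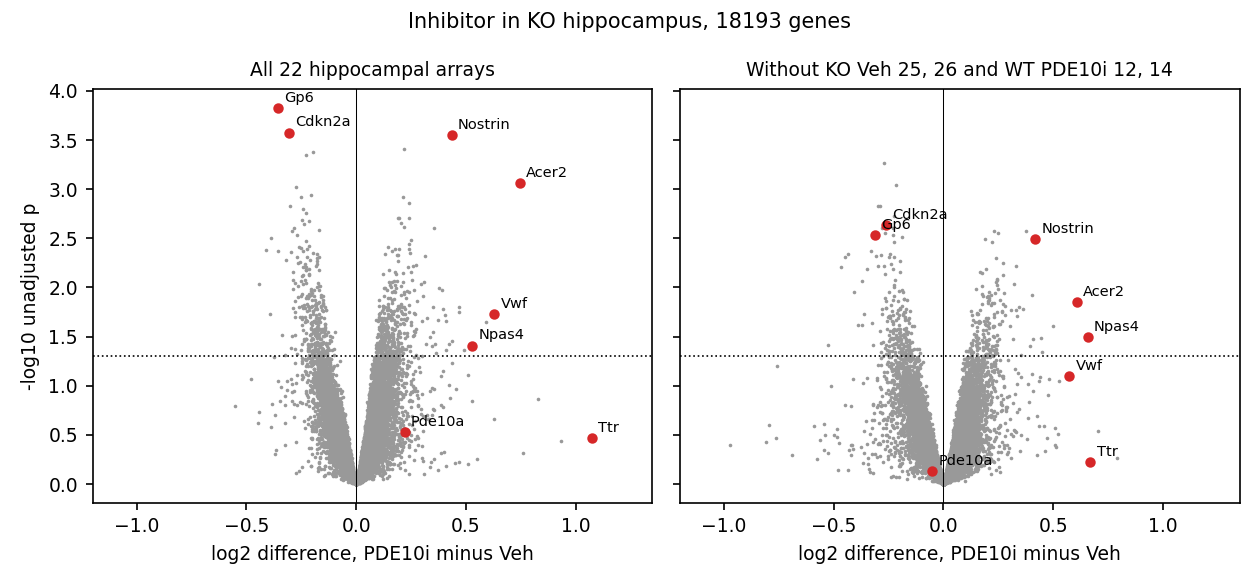
Each grey point is 1 of 18193 genes, by its log2 difference (KO PDE10i minus KO Veh, x axis) and the negative log10 of its unadjusted limma p (y axis); the left panel uses all 22 hippocampal arrays and the right panel leaves out KO Veh 25 and 26 and WT PDE10i 12 and 14. The dotted line marks an unadjusted p of 0.05, and no gene passed after adjustment in either panel. Ttr is farthest to the right on the left panel at 1.07 with a low y value.

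Since no gene passed, the 10 genes with the smallest p in each direction are given by their values. Among those with higher signals in KO PDE10i, Nostrin had the smallest p. It encodes an adaptor protein that binds endothelial nitric oxide synthase. Its log2 signals were 6.01, 6.35, 6.02, 6.39 and 5.76 in KO PDE10i arrays, against 5.78, 5.51, 5.59, 5.73 and 5.74 in KO Veh arrays. All KO PDE10i arrays but number 39 were above all KO Veh arrays, and the log2 difference was 0.44 ± 0.10 (SE, limma adjusted p = 0.993).

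Tmem209, which encodes a membrane protein, had log2 signals of 7.23, 7.38, 7.22, 7.31 and 7.22 in KO PDE10i arrays, against 7.12, 6.91, 7.02, 7.12 and 7.11 in KO Veh arrays. The groups did not overlap, with a difference of 0.22 ± 0.05 (SE), yet its other 2 probe sets gave 0.01 and -0.05. Acer2, an alkaline ceramidase of the Golgi, had 6.00, 7.52, 6.35, 6.50 and 6.30 in KO PDE10i arrays, against 5.92, 5.24, 5.76, 6.03 and 5.98 in KO Veh arrays. Array 35 was far above the rest and array 34 lay among the KO Veh arrays; the difference was 0.75 ± 0.19 (SE), and a second probe set gave -0.17. Without array 35 the Acer2 difference was 0.50, the lowest value when single arrays were left out.

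The zinc finger genes Zfp846 (0.22) and Zfp105 (0.24) also had no overlap between the groups, and a second probe set of Zfp846 gave 0.02. Rarb, a retinoic acid receptor, had log2 signals of 5.85, 5.63, 5.86, 5.88 and 5.75 in KO PDE10i arrays, against 5.46, 5.28, 5.41, 5.73 and 5.33 in KO Veh arrays. Only KO Veh array 29 reached into the KO PDE10i range, and the difference was 0.35 ± 0.10 (SE). The remaining genes of the 10 were Map3k4 (0.24), a stress-activated kinase kinase kinase on chromosome 17, Alg9 (0.20), a mannosyltransferase of N-glycan assembly, Cyp3a16 (0.19), a cytochrome P450, and Eda2r (0.22), a receptor of the TNF receptor family. Map3k4 was 0.16 without the 4 doubted arrays. Cyp3a16 and Eda2r were dim throughout, with log2 signals of 2.91 to 3.11 and 3.48 to 3.81 in KO PDE10i arrays, against 2.77 to 2.93 and 3.40 to 3.49 in KO Veh arrays.

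Among genes with lower signals in KO PDE10i, Gp6, the collagen receptor of platelets, had the smallest p of all genes. Its log2 signals were 4.50, 4.57, 4.69, 4.64 and 4.73 in KO PDE10i arrays, against 5.06, 5.04, 4.87, 5.13 and 4.82 in KO Veh arrays. The groups did not overlap, and the difference was -0.36 ± 0.08 (SE, limma adjusted p = 0.993). Cdkn2a, the locus of the cell cycle inhibitor p16, had 3.76, 3.76, 3.69, 3.50 and 3.85 in KO PDE10i arrays, against 3.91, 4.25, 4.00, 3.94 and 3.98 in KO Veh arrays. These groups did not overlap either, with a difference of -0.30 ± 0.07 (SE). Zswim4, a zinc finger protein gene, had 6.49, 6.42, 6.30, 6.50 and 6.41 in KO PDE10i arrays, against 6.66, 6.60, 6.59, 6.61 and 6.65 in KO Veh arrays. Again no array crossed over, and the difference was -0.20 ± 0.05 (SE).

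The other genes in the lower direction overlapped between the groups. They were Gtf2a1l (-0.23), a germ cell form of a general transcription factor, Trim54 (-0.27), a muscle RING finger protein, Cyp7a1 (-0.21), the rate-limiting enzyme of bile acid synthesis, Guca1b (-0.30), a guanylyl cyclase activator of photoreceptors, Ctse (-0.24), the protease cathepsin E, Trim61 (-0.23) and Prl (-0.24), the hormone prolactin. Apart from Zswim4, none of these 10 exceeded a log2 signal of 6.4 on any of the 10 arrays, and several are known from liver, retina, testis or pituitary rather than hippocampus. A second probe set of Ctse gave 0.23, against -0.24 for the one used.

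**Figure D3:**
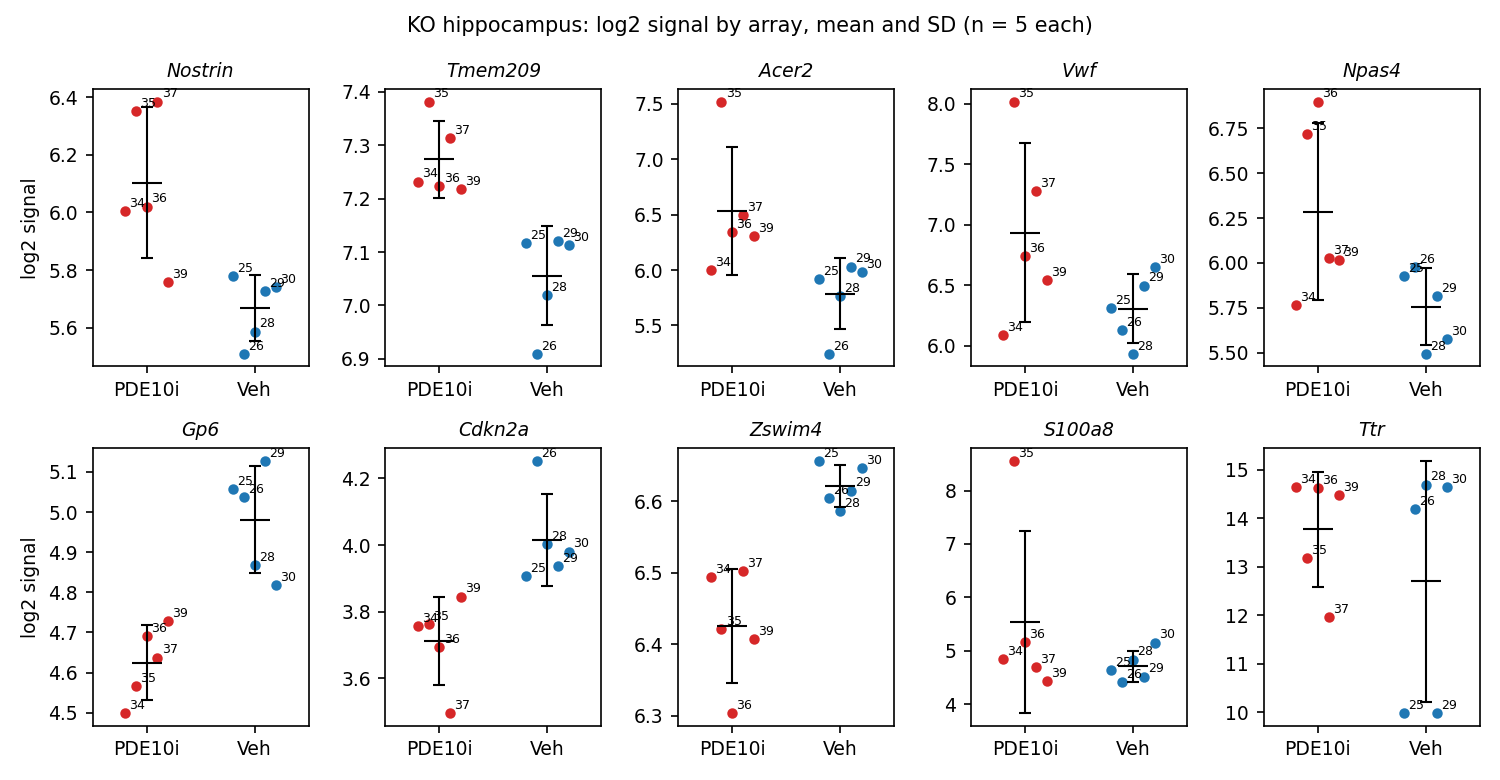
Log2 signal of 10 genes in each KO hippocampal array (points, numbered as in the titles), KO PDE10i left of KO Veh, with the mean and SD (bars, n = 5 each) and an axis of its own for each gene. Tmem209, Gp6, Cdkn2a and Zswim4 show no overlap. In S100a8 array 35 alone is high. In Acer2 array 35 is the highest, and most other KO PDE10i arrays also lie above all KO Veh arrays. Ttr covers several log2 units within both groups.

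Enzymes that make, sense and break down cyclic nucleotides were examined as a group. Of 22 phosphodiesterases other than Pde10a, 0 passed, 16 were above 0 and the median difference was 0.05, beside 0.01 over all genes. Pde6h, the inhibitory subunit of the cone photoreceptor enzyme, was the only one with an unadjusted p under 0.05, beside 3.82% of all genes. Its log2 signals were 4.28, 4.21, 4.20, 4.17 and 4.00 in KO PDE10i arrays, against 4.74, 4.38, 4.31, 4.35 and 4.30 in KO Veh arrays. The groups did not overlap, the difference was -0.25 ± 0.09 (SE), and without the 4 doubted arrays it was -0.15. A second probe set of similar brightness, averaging 4.31 in KO PDE10i and 4.30 in KO Veh, gave 0.0062. Pde7a, a cAMP-specific enzyme, differed by 0.13 ± 0.08 and Pde6d, a carrier of prenylated proteins, by 0.08 ± 0.05 (SE). Pde2a, which hydrolyses both cyclic nucleotides and is abundant in hippocampus, averaged 12.10 ± 0.06 in KO PDE10i and 12.05 ± 0.10 in KO Veh (SD, n = 5 each), with a 95% interval of the difference from -0.13 to 0.24. Pde4b, a cAMP-specific enzyme, averaged 8.88 ± 0.15 in KO PDE10i and 8.94 ± 0.17 in KO Veh, with an interval from -0.26 to 0.15.

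On the synthesis side, 0 of 17 adenylyl and guanylyl cyclase genes and G protein subunits passed, with 13 above 0 and a median of 0.03. Gnas, the stimulatory G protein subunit, differed by 0.05 ± 0.04 and Adcy1, the calmodulin-stimulated adenylyl cyclase of hippocampal neurons, by 0.09 ± 0.08 (SE). Of 18 genes for protein kinase A, protein kinase G and EPAC proteins and their regulators, 0 passed, 7 were above 0 and the median was -0.02; without the 4 doubted arrays 13 were above 0 with a median of 0.07, and without array 35 the values were 11 and 0.01. Prkg1, protein kinase G type I, gave 0.12 ± 0.10, and Pkig, an inhibitor of protein kinase A, gave 0.09 ± 0.07 (SE). None of these 35 genes had an unadjusted p under 0.05, beside 3.82% of all genes.

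Genes that respond to cAMP and to neuronal activity were followed next. Because CREB acts through the CRE, promoters of members that hold the palindrome TGACGTCA were looked up in the RefSeq windows of assembly GRCm38.p6, each 300 bases long around a transcription start. The motif reads the same on both strands, and 588 of 32851 windows (1.79%) held it. A stretch of the promoter is printed for Sst, the neuropeptide gene in which the CRE is best known, for Scg2, a granin of secretory granules, and for Dusp1, a MAP kinase phosphatase of the early response, each 5′ to 3′ on the gene's strand with the CRE in capitals. The last base of the CRE lies 40 bases before the start of Sst (chr16:23890857-23890916, minus strand), 60 before that of Scg2 (chr1:79440059-79440118, minus strand) and 135 before that of Dusp1 (chr17:26508580-26508639, minus strand).
Sst: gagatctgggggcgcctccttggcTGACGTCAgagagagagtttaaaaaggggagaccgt
Scg2: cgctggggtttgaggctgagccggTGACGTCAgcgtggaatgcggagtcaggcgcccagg
Dusp1: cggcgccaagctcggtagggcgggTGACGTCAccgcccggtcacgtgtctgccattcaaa

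All 3 genes with these CRE sequences overlapped between the groups. Sst had log2 signals of 11.40, 11.40, 11.36, 11.33 and 11.40 in KO PDE10i arrays, against 11.21, 11.35, 11.48, 11.47 and 11.33 in KO Veh arrays. The KO PDE10i arrays lay inside the KO Veh range, with a difference of 0.01 ± 0.10 (SE). Scg2 had 10.65, 10.83, 10.79, 11.04 and 10.77 in KO PDE10i arrays, against 10.74, 10.80, 10.73, 10.94 and 10.95 in KO Veh arrays, a difference of -0.01 ± 0.10 (SE). Dusp1 had 8.56, 8.33, 8.49, 8.08 and 8.20 in KO PDE10i arrays, against 8.24, 8.20, 8.0, 8.58 and 8.02 in KO Veh arrays. Its difference was 0.13 ± 0.18 (SE), with the highest single array in the KO Veh group. Over all 422 tested genes whose window held the CRE, 0 passed, 14 (3.32%) were higher and 4 (0.948%) lower at an unadjusted p under 0.05, beside 2.05% and 1.77% of all genes, and the median was 0.02, beside 0.01.

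Of 36 early response genes, 0 passed, 23 were above 0 and the median was 0.03. Npas4, an activity-dependent transcription factor of neurons, was the only one with an unadjusted p under 0.05, beside 3.82% of all genes. Its log2 signals were 5.77, 6.72, 6.90, 6.02 and 6.02 in KO PDE10i arrays, against 5.93, 5.98, 5.49, 5.81 and 5.57 in KO Veh arrays. Arrays 35 and 36 were well above the rest and array 34 lay among the KO Veh arrays. The difference was 0.53 ± 0.24 (SE, limma adjusted p = 0.993). Fos had 8.06, 7.91, 8.06, 7.45 and 7.32 in KO PDE10i arrays, against 7.39, 7.49, 7.30, 8.16 and 7.07 in KO Veh arrays. The highest array belonged to the KO Veh group, and the difference was 0.28 ± 0.28 (SE). Junb (0.23 ± 0.12), an AP-1 subunit, and Per1 (0.16 ± 0.08), a clock gene that also responds to CREB, were also above 0, and Nr4a1, an orphan nuclear receptor, stood at 0.03 ± 0.11 (SE). Without array 35, 18 of the 36 were above 0. Without the 4 doubted arrays 26 were above 0, and Npas4 gave 0.66.

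Of 12 feedback genes of the ERK pathway, 6 were above 0, and Spred1, an inhibitor of that pathway, gave -0.14 ± 0.10 (SE). Among 18 clock genes, 13 were above 0 with a median of 0.03, and Ciart, a repressor of the clock, gave 0.17 ± 0.08 (SE, limma adjusted p = 0.993). Of 21 neuropeptide and granin genes, 12 were above 0 with a median of 0.01. Nts, the precursor of neurotensin, had 7.75, 7.47, 7.58, 7.90 and 7.64 in KO PDE10i arrays, against 7.71, 7.02, 7.51, 7.62 and 6.70 in KO Veh arrays. KO Veh arrays 26 and 30 were low and the groups overlapped; the difference was 0.35 ± 0.21 (SE). Npy, neuropeptide Y, gave 0.17 ± 0.12 and Chgb, chromogranin B, 0.14 ± 0.09 (SE). No gene of these 3 lists passed.

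Genes through which a compound could act on cells apart from its target were covered by 4 lists. Of 23 genes of xenobiotic and oxidative stress responses, 0 passed, 15 were above 0 and the median was 0.04. Cyp1b1, a cytochrome P450 induced by the aryl hydrocarbon receptor, had 6.34, 6.56, 6.44, 7.28 and 6.32 in KO PDE10i arrays, against 6.10, 6.21, 6.20, 6.21 and 6.49 in KO Veh arrays. Array 37 was the highest in KO PDE10i and array 30 the highest in KO Veh, and the difference was 0.35 ± 0.16 (SE, limma adjusted p = 0.993). Without array 37 it was 0.17, and other probe sets of the gene gave 0.13 and -0.14. Mt1, a metallothionein, gave 0.16 ± 0.09 (SE). The lowest difference of the list was -0.27 for Slc7a11, whose second probe set gave -0.21. Of 23 heat shock and ER chaperone genes, 14 were above 0 with a median of 0.02. Hspa1a, an inducible Hsp70, gave the lowest difference of the list, -0.23 ± 0.14 (SE), and Hspa1b gave the highest, 0.15. Without the 4 doubted arrays 9 of these 23 were above 0 with a median of -0.02, and without array 35 the count was 11 and the median -0.0058. Of 18 cholesterol synthesis genes, 14 were above 0 with a median of 0.06; Idi1, an isomerase of the isoprenoid pathway, gave 0.14 ± 0.07 (SE), and its second probe set gave -0.15.

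All 17 measured glucocorticoid responsive genes had a difference above 0, with a median of 0.14 and 0 past the test. Genes of this list answer to the glucocorticoid receptor, which binds the palindrome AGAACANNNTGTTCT as a dimer. That motif, the same on both strands, was in 3 of 32851 promoter windows (0.00913%), among them that of Sgk1, a kinase that regulates ion channels and transporters. The stretch of Sgk1 around it is shown with the motif in capitals, 174 bases before the start (chr10:21993677-21993736, plus strand of GRCm38.p6).
Sgk1: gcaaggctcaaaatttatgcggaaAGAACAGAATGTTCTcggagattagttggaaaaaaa

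Sgk1 had log2 signals of 9.49, 9.83, 10.16, 9.66 and 9.37 in KO PDE10i arrays, against 9.41, 9.24, 9.68, 9.63 and 9.88 in KO Veh arrays. The groups overlapped, with a difference of 0.14 ± 0.18 (SE) that was -0.02 without the 4 doubted arrays. Fkbp5, a co-chaperone of the glucocorticoid receptor, had 8.93, 9.37, 9.02, 9.37 and 9.0 in KO PDE10i arrays, against 9.02, 8.79, 8.91, 8.98 and 9.17 in KO Veh arrays. Arrays 35 and 37 were high and the other KO PDE10i arrays lay within the KO Veh range; the difference was 0.17 ± 0.15 (SE). Tsc22d3, which encodes the leucine zipper protein GILZ, gave 0.14 ± 0.08 (SE). Arrdc2 (0.22 ± 0.08), an arrestin-domain protein, and Sult1a1 (0.26 ± 0.11), a sulfotransferase, were the 2 members with an unadjusted p under 0.05. They are 11.8% of the list, beside 2.05% of all genes that were higher at that p. Plin4, a lipid droplet protein, gave 0.26 ± 0.13 (all SE). The limma adjusted p was 0.993 for Arrdc2, Sult1a1 and Plin4. Without array 37, the highest at 5.86, Plin4 gave 0.10.

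The mean over the 17 glucocorticoid responsive genes lay between 7.90 and 8.30 in KO PDE10i arrays and between 7.81 and 7.97 in KO Veh arrays, with array 35 the highest. Without the 4 doubted arrays 14 of the 17 were above 0 with a median of 0.12, and without array 35 the count was 15 and the median 0.12. In WT hippocampus 13 of the 17 were above 0 with a median of 0.05. The list was chosen with earlier results of these data known, and the members are not independent of each other.

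Neuronal gene groups gave 0 genes past the test in each case. Of 24 hippocampal subfield markers, 19 were above 0 with a median of 0.05, and Calb1, a calcium-binding protein of granule cells, gave 0.21 ± 0.13 (SE), with its other 3 probe sets at 0.25 to 0.39. Of 11 glutamatergic markers 7 were above 0 (median 0.04), and Emx1, a cortical transcription factor, gave 0.12 ± 0.09. Of 16 interneuron markers 11 were above 0, with a median of 0.02. Among 30 glutamate and GABA-A receptor subunits, 16 were above 0 with a median of 0.01. Gabra2, a GABA-A subunit of pyramidal cells, gave -0.19 ± 0.09 (SE, limma adjusted p = 0.993), and its other probe sets gave -0.12 to -0.04. Among 41 potassium, sodium, calcium and HCN channel genes, 27 were above 0 with a median of 0.03. Kcnj6, a G protein-gated potassium channel, gave 0.18 ± 0.11, and its other probe sets gave -0.11 to 0.16. For 39 of these 41 genes the 95% interval lay within 0.5 on either side of 0.

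Most genes common to all cells were closely bounded. For all 69 genes of oxidative phosphorylation the 95% interval lay within 0.5 on either side of 0. Of these, 53 were above 0 with a median of 0.02, and without the 4 doubted arrays 35 were above 0 with a median of 0.00037. Cox7c, a subunit of cytochrome c oxidase, gave 0.17 ± 0.07 (SE). Of 39 cytosolic ribosomal protein genes, 29 were above 0 with a median of 0.01, and 18 without the 4 doubted arrays. For 38 of the 39 the 95% interval lay within 0.5 on either side of 0, and the highest upper end was 0.55. Rpl14 gave 0.16 ± 0.06 (SE).

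Markers of other cell types show how the dissected tissue differed from array to array. In bulk tissue, fewer cells of a type and less RNA per cell cannot be told apart. Choroid plexus markers varied widely: Ttr, the transthyretin gene, which choroid plexus expresses abundantly, had log2 signals of 14.63, 13.18, 14.62, 11.96 and 14.47 in KO PDE10i arrays, against 9.99, 14.19, 14.69, 9.98 and 14.63 in KO Veh arrays. High and low arrays occurred in both groups. Its difference of 1.07 ± 1.11 (SE) was the largest of all genes, with a 95% interval from -1.23 to 3.38. Over the 12 choroid plexus and ependymal markers the mean lay between 6.06 and 8.42 in KO PDE10i arrays and between 5.57 and 8.70 in KO Veh arrays. The median difference was 0.19 with 10 above 0, and -0.28 with 2 above 0 without the 4 doubted arrays. Clic6, a chloride channel protein of choroid plexus, gave 0.76 ± 1.06 with all arrays and -0.17 without them.

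All 15 vascular markers were above 0, with a median of 0.08 and 0 past the test. Vwf, the von Willebrand factor of endothelium, had log2 signals of 6.09, 8.02, 6.74, 7.28 and 6.54 in KO PDE10i arrays, against 6.31, 6.13, 5.93, 6.50 and 6.65 in KO Veh arrays. Array 35 was the highest, and arrays 34 and 39 lay within the KO Veh range. The difference was 0.63 ± 0.25 (SE, limma adjusted p = 0.993), and 0.36 without array 35. Tie1, an endothelial receptor kinase, gave 0.23 ± 0.10 (SE). The count above 0 was 13 with a median of 0.05 without the 4 doubted arrays, and 12 with a median of 0.04 without array 35. The array means were 7.50 to 7.87 in KO PDE10i and 7.50 to 7.71 in KO Veh. In WT hippocampus 3 of the 15 were above 0, with a median of -0.06, and in KO striatum 3, with a median of -0.09. In WT striatum 14 were above 0, with a median of 0.34. The part of endothelial content in the values for Nostrin was not tested.

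Oligodendrocyte markers lay mostly below 0, with 2 of 14 above 0 and a median of -0.10, and 1 above 0 with a median of -0.18 without the 4 doubted arrays. Pdgfra, the receptor of oligodendrocyte precursors, gave -0.15 ± 0.08 and Olig1, a lineage transcription factor, -0.13 ± 0.08 (SE). Their mean lay between 9.67 and 10.10 in KO PDE10i arrays and between 9.67 and 10.14 in KO Veh arrays. Of 12 astrocyte markers 5 were above 0 (median -0.02), with Gjb6, connexin 30, at 0.15 ± 0.11; without the 4 doubted arrays 7 were above 0 with a median of 0.03. Of 12 microglial markers 6 were above 0 (median 0.02), with Aif1, the gene of IBA1, at 0.34 ± 0.21 (SE) and at 0.07 without the 4 doubted arrays. Of 10 meningeal and fibroblast markers 6 were above 0 (median 0.07); Dcn, the matrix proteoglycan decorin, gave -0.48 ± 0.27 (SE), and -0.19 without those arrays.

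Markers of neighbouring regions were checked as well. Of 15 striatal neuron markers 8 were above 0 (median 0.01). Rarb was the only one at an unadjusted p under 0.05, beside 3.82% of all genes. Of 15 thalamic and habenular markers 3 were above 0 (median -0.09), with Rgs16 at -0.17 ± 0.10 and Synpo2 at -0.44 ± 0.32 (SE). For Synpo2, KO Veh array 30 alone was high at 6.86, the difference was -0.095 without it, and the other 3 probe sets gave 0.03, -0.03 and -0.07. Of 8 hypothalamic markers 2 were above 0 (median -0.07), with Oxt, oxytocin, at -0.13 ± 0.09. No marker of these 3 lists passed.

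Single arrays stood out on particular genes. KO PDE10i array 35 was more than 1 log2 unit above the next array of its own group for 20 genes. Array 36 was so for 14 genes, and arrays 34, 37 and 39 for 0, 1 and 1. In the KO Veh group the counts were 0, 14, 1, 2 and 6 for arrays 25, 26, 28, 29 and 30. S100a8, a calcium-binding protein of neutrophils, had 4.85, 8.56, 5.16, 4.70 and 4.44 in KO PDE10i arrays, against 4.64, 4.41, 4.84, 4.52 and 5.15 in KO Veh arrays. Lcn2, lipocalin 2, an acute phase protein also made by neutrophils, had 3.44, 6.27, 3.51, 3.36 and 3.47 in KO PDE10i arrays, against 3.46, 3.45, 3.49, 3.52 and 3.50 in KO Veh arrays. On both genes array 35 alone was high. Gabra6, the GABA-A subunit of cerebellar granule cells, had 4.86, 3.96, 8.35, 3.27 and 3.87 in KO PDE10i arrays, against 3.69, 3.74, 4.00, 3.44 and 4.78 in KO Veh arrays, and array 36 alone was high. Of 6 blood markers 4 were above 0 with a median of 0.15, and without array 35 the count was 2 and the median -0.03.

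Leaving out the 4 doubted arrays moved further lists and genes, none of which had passed. The median turned to 0.01 for the ERK feedback list, to -0.0069 for microglial markers and to -0.0016 for ribosomal protein genes. With the same direction as before, it was 0.06 for early response genes, 0.02 for neuropeptides and granins, 0.03 for cholesterol synthesis, 0.04 for interneuron markers, 0.02 for receptor subunits, 0.02 for meningeal markers, 0.06 for striatal markers, -0.03 for thalamic and habenular markers and -0.01 for hypothalamic markers. Among single genes without those arrays, Sst stood at -0.04, Scg2 at -0.06 and Nr4a1 at 0.10. The peptide genes Npy at 0.03 and Chgb at 0.08 and the clock gene Ciart at 0.09 were closer to 0. Nts was farther from 0 at 0.39. Mt1 and Emx1, both at 0.06, were also closer to 0. Of the cyclic nucleotide genes, Pde7a stood at 0.06, Pde6d at 0.02, Gnas at 0.02 and Pde4b at -0.10. Fndc1 stood at 0.10 without them and at 0.51 with them. Ttr stood at 0.67, Rgs16 at -0.11, Synpo2 at -0.76 and Muc15 at -0.17.

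**Figure D4:**
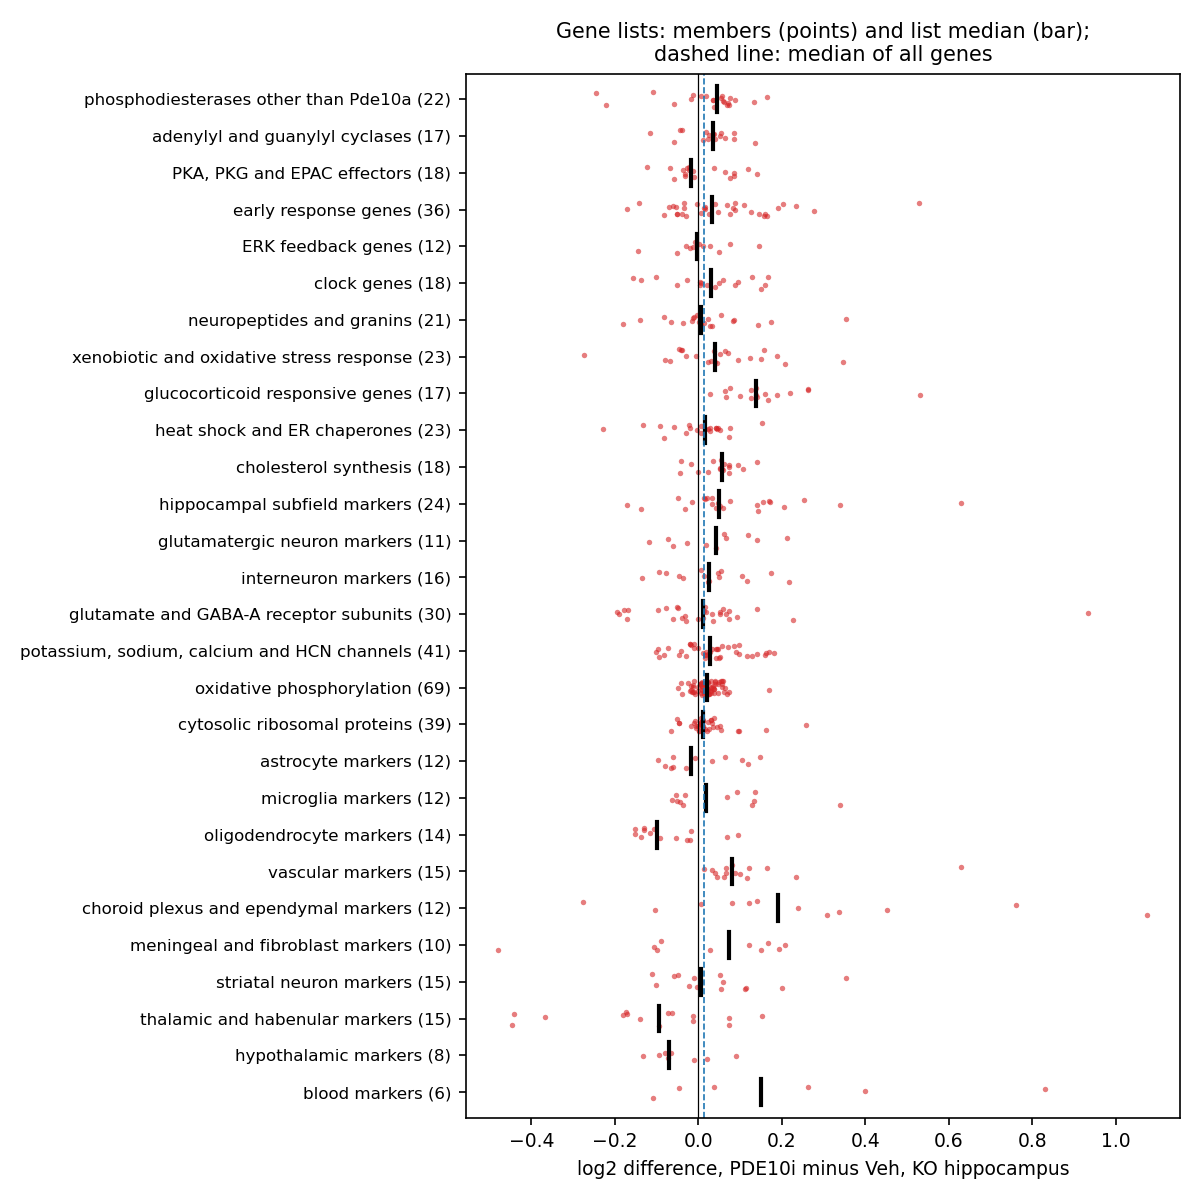
Log2 differences (KO PDE10i minus KO Veh, x axis) of the members of 28 gene lists (red points, number tested in brackets), with the list median as a black bar and the median of all genes as a dashed line. The glucocorticoid responsive and vascular lists have all members above 0, the oligodendrocyte list has 2 of 14 above 0, and choroid plexus markers spread most, from -0.28 to 1.07.

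Genes that answered to the inhibitor where the target is abundant were then followed in KO hippocampus. In WT striatum 33 genes passed the test, 18 higher and 15 lower with the inhibitor; these come from other arrays. In KO hippocampus 18 of the 33 were above 0, and their differences lay between -0.18 and 0.15 with a median of 0.01. Of the 33, 0 had an unadjusted p under 0.05, beside 3.82% of all genes. Counted in the direction seen in WT striatum, the median was 0.0047. WT hippocampus had 13 of the 33 above 0, with a median of -0.01, and KO striatum had 15, with a median of -0.03. Of the 18 genes higher in WT striatum, 10 were above 0 in KO hippocampus and 4 in WT hippocampus. Of the 15 lower there, 8 were above 0 in KO hippocampus and 9 in WT hippocampus. All these counts include the 4 doubted arrays. Nnat, the imprinted gene neuronatin, gave -0.18 ± 0.17 in KO hippocampus and 1.43 ± 0.17 in WT striatum (SE). Its log2 signals were 10.57, 10.73, 10.77, 10.44 and 10.68 in KO PDE10i hippocampi, against 10.66, 11.32, 10.86, 10.67 and 10.59 in KO Veh hippocampi. The array labelled KO Veh 26 was the highest and the other 9 arrays overlapped; without the 4 doubted arrays the difference was -0.07.

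Other genes with large striatal differences had smaller estimates in KO hippocampus, and that of Coch was imprecise. Irak3, an inhibitor of Toll-like receptor signalling, gave 0.13 ± 0.11 in KO hippocampus and 1.22 ± 0.25 in WT striatum. Pde1c, a calmodulin-dependent phosphodiesterase, gave -0.01 ± 0.16 in KO hippocampus and 0.95 ± 0.16 in WT striatum. Fam43a gave -0.02 ± 0.10 in KO hippocampus and 0.88 ± 0.12 in WT striatum, and Coch, cochlin, gave -0.17 ± 0.39 in KO hippocampus and 0.74 ± 0.14 in WT striatum (all SE).

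In the lower direction, Clspn, a mediator of the DNA replication checkpoint, gave 0.04 ± 0.12 in KO hippocampus and -1.47 ± 0.20 in WT striatum. Serpinb1b, a protease inhibitor, gave -0.11 ± 0.41 in KO hippocampus and -1.19 ± 0.24 in WT striatum. Rasgef1c, an exchange factor of Ras-like GTPases, gave 0.01 ± 0.23 in KO hippocampus and -0.71 ± 0.12 in WT striatum. Gask1b gave -0.03 ± 0.12 in KO hippocampus and -0.68 ± 0.14 in WT striatum, and Ptprv, a receptor tyrosine phosphatase, gave -0.05 ± 0.08 in KO hippocampus and -0.66 ± 0.14 in WT striatum (all SE). For 29 of the 33 genes the 95% interval in KO hippocampus lay within 0.5 on either side of 0, and for all 33 it lay within 1. The lowest interval end was -0.98 among the 18 genes higher in WT striatum and -0.96 among the 15 lower there. Without the 4 doubted arrays the KO hippocampal differences of Pde1c (0.08), Fam43a (0.0055), Rasgef1c (-0.03) and Ptprv (0.04) had the other sign, Coch stood at -0.30, Serpinb1b at -0.42, Clspn at 0.02 and Gask1b at -0.05, and 17 of the 33 genes were above 0. The difference between KO hippocampus and WT striatum was not tested, since both genotype and region change between them.

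**Figure D5:**
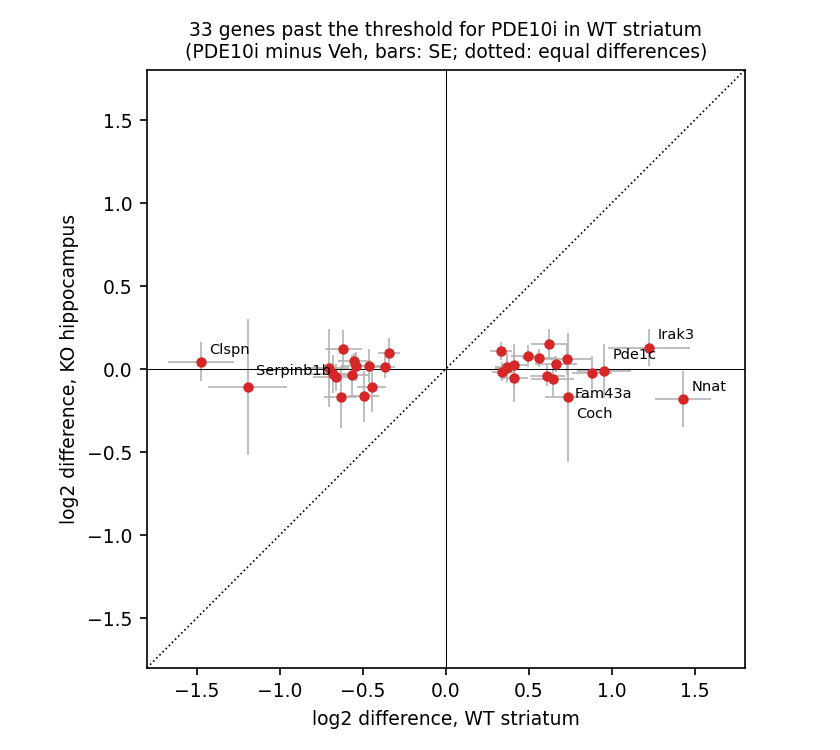
Log2 difference (PDE10i minus Veh) of the 33 genes that passed the test in WT striatum, in KO hippocampus (y axis) and in WT striatum (x axis), with SE bars; the dotted line marks equal differences. The points lie along the horizontal line at 0, between -0.18 and 0.15, although they reach from -1.47 to 1.43 in WT striatum.

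Whether the inhibitor effect in KO hippocampus differed from that in WT hippocampus was tested as a difference of differences within the 22 hippocampal arrays. Of 18193 genes, 0 (0.0%) passed by limma, with a smallest adjusted p of 0.266, and 2151 (11.8%) had an unadjusted p under 0.05. Without the 4 doubted arrays 0 passed and 692 had an unadjusted p under 0.05. The 3 named genes with the smallest p were Kti12 (0.15 in KO, -0.23 in WT, KO minus WT 0.38 ± 0.07), a protein linked to the elongator complex, Insrr (-0.15 in KO, 0.23 in WT, KO minus WT -0.39 ± 0.08), a receptor related to the insulin receptor, and Cmtm1 (-0.14 in KO, 0.26 in WT, KO minus WT -0.40 ± 0.08), a chemokine-like protein gene (SE, adjusted p = 0.266 for each).

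Inhibitor effects in KO and in WT hippocampus share no array. Across the 18193 genes they correlated at r = -0.319, and at -0.00657 without the 4 doubted arrays; genes are not independent replicates. The array WT PDE10i 13 had a mean of 8.15 on the subfield markers, below the 8.91 to 9.27 of all other hippocampal arrays. When it was left out, 1 gene, a transcript with a clone name (9030404E10Rik), passed the test of the difference, at -0.64 ± 0.10 (SE, limma adjusted p = 0.0390).

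The inhibitor effect in KO hippocampus was also set against that in KO striatum, over all 42 arrays. Of 18193 genes, 0 (0.0%) passed by limma, with a smallest adjusted p of 1.0, and 330 (1.81%) had an unadjusted p under 0.05. The smallest p among named genes belonged to Nostrin (0.44 in KO hippocampus, -0.08 in KO striatum, hippocampus minus striatum 0.51 ± 0.14), Tdrd12 (-0.18 in KO hippocampus, 0.34 in KO striatum, hippocampus minus striatum -0.52 ± 0.15), a tudor domain protein of the germline, and Muc15 (-0.10 in KO hippocampus, 0.30 in KO striatum, hippocampus minus striatum -0.39 ± 0.11), a membrane mucin (SE, adjusted p = 1.0 for each). In KO striatum alone 0 genes passed the test for the inhibitor and 257 had an unadjusted p under 0.05. Across the 18193 genes, the inhibitor effects in KO hippocampus and in KO striatum correlated at r = 0.022. With the 4 doubted arrays left out of the hippocampal fit, r was 0.217. Genes are not independent replicates here either.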

How the data were processed

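The authors deposited log2 expression values of 45101 probe sets on 42 arrays, which RMA produced according to the authors (per the submitters' processing notes); RMA corrects background, normalizes quantiles and summarises probes, so overall shifts between arrays are removed. The deposited values were used as they stand. Gene names come from the platform annotation (34945 with 1 gene, 932 with several, 9160 with none), with symbols updated through RefSeq GRCm38.p6 for 34741. Each of 18193 genes was represented by its brightest probe set on average over all arrays. Differences were fitted with limma 3.58.1 in R 4.3.3 (two-sided, Benjamini-Hochberg over all genes, threshold 0.05), the 4 hippocampal groups sharing a fit. The fitting code was run on simulated data with known changes. Noise there was independent between genes and arrays, with no mislabelled or outlying arrays, so that run does not bear on such arrays here.

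The members and the 28 gene lists were chosen with earlier results of these data known; 574 of 645 list entries were measured. The text names Pde10a, the 10 genes of smallest p in each direction, up to 3 genes of smallest p per list and per difference of effects, and the 5 largest WT striatal changes each way; clone and predicted names were left out (1866 genes). Fos, Nr4a1, Sst, Scg2, Dusp1, Fkbp5, Sgk1, Tsc22d3, Prox1, Drd1, Lcn2, Gabra6, Pde2a, Pde4b and Fndc1 were named after their values were seen. Alternatives were other summaries, filters, scalings and weights, and leaving out arrays.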

Additional observations from a re-analysis of the deposited data

Results flagged for a closer look

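In 14 of the 180 groups of 5 values examined (90 genes in KO PDE10i and in KO Veh), the highest or lowest array lay farther from its nearest neighbour, relative to the group's range, than Dixon's 95% critical value of 0.71 allows. Chance alone flags about 1 group in 20 when genes are chosen without regard to their values. Many genes here were chosen by small p, and some after their values were seen. The count was therefore not tested against that rate.

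Among KO PDE10i arrays, number 35 was highest for S100a8 (8.556) and Lcn2 (6.266) and lowest for Ptprv (6.053). Array 36 was highest for Zfp105 (5.938), array 37 for Cyp1b1 (7.284) and array 39 for Trim54 (4.677). Among KO Veh arrays, the array labelled 25 was highest for Pde6h (4.743) and lowest for Trim61 (4.675) and Plin4 (4.716). The array labelled 26 was highest for Cdkn2a (4.253) and Dcn (10.5) and lowest for Alg9 (7.738). Array 30 was highest for Cyp1b1 (6.493) and Synpo2 (6.863). All are log2 signals.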

How the results depend on the processing

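The counts of genes past the threshold stayed at 0 for the inhibitor in KO hippocampus, and for its difference from KO striatum, under every alternative run; leaving out single arrays gave 399 to 1086 genes at an unadjusted p under 0.05 in KO hippocampus. For KO minus WT hippocampus the count was 0 to 1 when single arrays were left out, the 1 being without WT PDE10i 13. The median of the 33 striatal genes ran from -0.014 to 0.017, and from -0.015 to 0.024 without single arrays. Of 1927 values over 89 named genes other than Pde10a, 1874 kept their direction and 53, in 17 genes, reversed, and Pde10a reversed without the 4 doubted arrays; none passed the threshold, and the cause was not tested. Without KO Veh 25 and 26 and WT PDE10i 12 and 14 the difference was -0.050 for Pde10a (0.115 to 0.395 without single arrays), -0.17 for Clic6, 0.083 for Pde1c, 0.0055 for Fam43a, -0.030 for Rasgef1c, 0.044 for Ptprv, -0.045 for Sst and -0.023 for Sgk1. With the mean of a gene's probe sets it was -0.017 for Gnas, -0.0061 for Idi1, -0.031 for Clspn and 0.065 for Gask1b. Array weights gave 0.027 for Pde1c and 0.0062 for Ptprv, subtracted array medians -0.015 for Rasgef1c and -0.0090 for Sst, and repeated quantile normalization 0.00094 for Gask1b and -0.0027 for Sst. Without KO PDE10i 35 and 36, an alternative chosen after seeing the data, it was -0.049 for S100a8, 0.017 for Coch, -0.052 for Rasgef1c, 0.00056 for Ptprv, -0.057 for Sgk1 and -0.055 for Lcn2. Leaving out single arrays gave -0.093 to 0.114 for Pde1c, -0.097 to 0.042 for Fam43a, -0.026 to 0.041 for Sst, -0.060 to 0.090 for Rasgef1c, -0.099 to 0.016 for Ptprv, -0.325 to 0.141 for Serpinb1b, -0.020 to 0.071 for Nr4a1, -0.046 to 0.137 for Clspn, -0.071 to 0.028 for Scg2, -0.115 to 0.021 for Gask1b, -0.322 to 0.061 for Coch and -0.034 to 0.691 for Lcn2.

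No paired analysis was possible within hippocampus because KO PDE10i and KO Veh arrays share no number. Numbers shared between KO hippocampus and KO striatum gave 9 pairs, whose deviations correlated between -0.382 and 0.305, with the own number best in 2 of 9, and they were not taken as pairs; whether they mark the same mice is not given in any source used here. With the number as a replicate block 0 genes passed for the difference between regions and 334 had an unadjusted p under 0.05. The number of arrays limits what could be seen, as the intervals show.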
